A study of Mus musculus with 32 samples.

Results

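The 43 genes described here encode proteins that carry a cell through G2 and mitosis. They comprise Cdk1 with its cyclins and Cks subunits, the kinases of mitotic entry, the spindle checkpoint and the anaphase-promoting complex, and centromere and kinetochore proteins. Mitotic kinesins, spindle microtubule proteins, cytokinesis proteins and proteins of mitotic chromosomes complete the list. The genes were chosen by name and matched to the deposited counts by Entrez identifier, where they made up 43 of 27179 genes. All 43 were found, and all 43 passed the filter on low counts in LSK cells (14102 genes tested), in progenitors (13692 genes) and in the fit of both populations (14459 genes).

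Bulk RNA sequencing was done on cells sorted from 16 adult C57BL/6 mice, each of which gave 1 library of LSK cells and 1 library of progenitors. LSK cells are the marrow fraction that contains the hematopoietic stem cells, and the gate of the progenitors is not described in the labels. The study asked what loss of HBO1, the histone acetyltransferase encoded by Kat7, does in these cells. The 8 groups of 4 libraries were knockout and control cells of 2 Cre lines in both populations, with 1 library per mouse in each group.

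Knockout mice were Hbo1fl/fl, with both floxed alleles deleted. Control mice were Hbo1fl/+, and their titles state that the 1 floxed allele was deleted, while these mice are named wild type in the treatment protocol. In the CreER line deletion was made by RosaCreERT2, a Cre that enters the nucleus after tamoxifen. In the Mx1Cre line it was made by Mx1-Cre, driven by an interferon-responsive promoter, after polyIC, which induces interferon. Controls carried the Cre of their line and were induced too. Neither Cre is limited to stem cells, and Cre line, inducing agent and mice cannot be told apart.

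Entry into mitosis is driven by Cdk1 bound to A-type and B-type cyclins, and exit by the anaphase-promoting complex, which marks cyclins and the proteins holding sister chromatids for destruction once the spindle checkpoint is satisfied. Genes of this program are transcribed late in the cell cycle, largely through CCAAT boxes bound by NF-Y and through cell cycle homology elements bound by the MuvB complex, which represses them in resting cells. Stem cells in adult marrow are mostly out of cycle, whereas many of the progenitors around them divide. In bulk samples, fewer cells in G2 or mitosis and less of these RNAs per cell cannot be told apart.

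Promoters of 37 of the 43 genes were found in the RefSeq table of GRCm38.p6, as 250 bases before to 50 bases after the start site, and those of Ccna2, Tpx2, Aurkb, Kif20a, Dlgap5 and Smc4 were not. CCAAT was present on either strand in 29 of the 37 promoters (78.4%), against 41.1% of all 27025 promoters of the table. TTTGAA, one form of the cell cycle homology element, was in 27 of the 37 (73.0%), against 20.2% of all promoters. The other form, TTCGAA, was in 3 (8.11%), against 1.8%. CCAAT together with either of these 2 forms was found in 24 (64.9%), against 8.61%. CCAAT occurred more than once in 23 (62.2%), against 13.3%. The E2F motif TTTGGCGC was in none of the 37, against 0.585% of all promoters, and TTTCGCGC was in 1 (2.7%), against 0.374%. None of these motifs was found in the promoters of Birc5, Nuf2, Nusap1 and Tacc3. Lists of other genes, described below, held them too. CCAAT was in 64.7% of 34 other G2 and M phase genes and 69.2% of 26 S phase genes. It was in 69.2% of 13 transcriptional regulators of mitotic genes, 75.0% of 8 p53 target genes and 50.0% of 12 G1 genes. In the same order, TTTGAA was in 61.8%, 15.4%, 46.2%, 12.5% and 16.7%. The motifs do not contain one another, and a match is a description of the letters only.

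Stretches of 100 bases upstream of the start site, ahead of any annotated exon, are shown for 5 genes whose stretches differ in these motifs. They run 5′ to 3′ on the strand of the gene. Capitals mark CCAAT and both forms of the cell cycle homology element on either strand. Cdk1 (chr10:69352939-69353038, minus strand) and Top2a (chr11:99024190-99024289, minus strand) carry both kinds of motif in the stretch. Bub1 (chr2:127831866-127831965, minus strand) and Cdca8 (chr4:124936918-124937017, minus strand) carry only CCAAT there, and Birc5 (chr11:117849137-117849236, plus strand) carries neither. The last base shown lies 27 bases before the start site in Cdk1, 7 in Bub1 and 1 in the others. A further TTTGAA of Cdk1, at -15, is therefore outside its stretch. Bub1 also holds TTCGAA at 14 and Cdca8 TTTGAA at 13, after the start site and outside their stretches.
Cdk1: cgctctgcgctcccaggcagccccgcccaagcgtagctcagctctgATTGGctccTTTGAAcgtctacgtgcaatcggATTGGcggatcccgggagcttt
Top2a: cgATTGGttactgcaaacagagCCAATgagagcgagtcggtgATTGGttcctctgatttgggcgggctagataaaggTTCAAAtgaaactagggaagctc
Bub1: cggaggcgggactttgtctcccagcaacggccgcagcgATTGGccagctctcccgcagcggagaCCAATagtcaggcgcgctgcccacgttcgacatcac
Cdca8: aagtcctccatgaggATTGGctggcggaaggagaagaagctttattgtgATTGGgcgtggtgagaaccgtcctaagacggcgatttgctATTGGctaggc
Birc5: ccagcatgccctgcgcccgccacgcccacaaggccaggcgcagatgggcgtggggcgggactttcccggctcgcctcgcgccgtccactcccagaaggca

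Libraries held 7275277 to 18409271 counts (median 12207444). Kat7 lay between 0 and 1.69 CPM (read counts scaled to a common library total) in the 16 knockout libraries and between 39.3 and 77.9 CPM in the 16 controls. Ly6a, which encodes Sca-1, was at 12.5 to 118 CPM in LSK libraries and at 1.85 to 6.3 CPM in progenitors, and Kit was at 192 to 461 CPM over all libraries. Sex-linked genes of 2 libraries, LSK CreER knockouts 2 and 3, went against the sex in their labels. Counts of called genes in LSK knockouts that rest on these libraries are also given without them, whereas CreER values of single genes and summed marker levels include them. In what follows CPM values were scaled with TMM over all 32 libraries, tests are edgeR's quasi-likelihood test with Benjamini-Hochberg adjustment over all genes tested, and rose or fell is used only below an adjusted p of 0.05.

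In LSK cells the summed level of the 43 genes was higher in Mx1Cre knockouts than in their controls. The 4 Mx1Cre controls held 6569, 6253, 6421 and 5939 CPM of these genes in total, and the 4 knockouts 7786, 7959, 7629 and 7497 CPM. The groups did not overlap, with means of 6296 ± 270 (SD, n = 4) and 7718 ± 199 CPM. CreER controls held 4568, 5742, 5293 and 6725 CPM and CreER knockouts 4348, 7385, 5726 and 6936 CPM. Here the groups overlapped over most of their range, with means of 5582 ± 902 and 6099 ± 1361 CPM. The spread between mice of a CreER group, 16.2% of the mean in controls and 22.3% in knockouts, was wider than in Mx1Cre (4.3% and 2.58%).

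**Figure D1:**
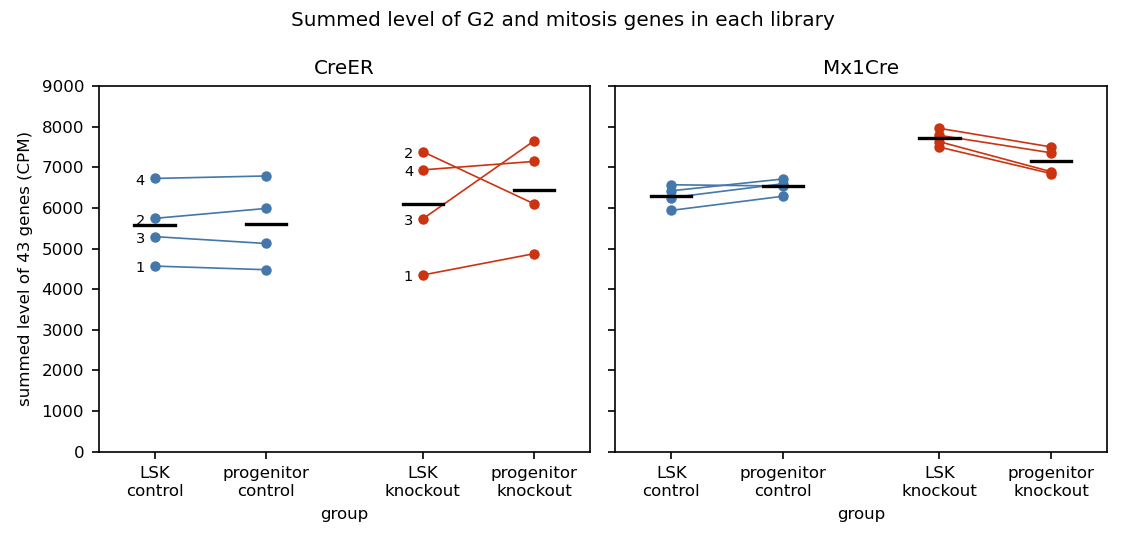
Summed level of the 43 genes (CPM, y axis from 0) in each library, by group (x axis), with CreER mice on the left and Mx1Cre mice on the right. Points are libraries, thin lines join the LSK and progenitor library of a mouse, black bars are group means, and numbers on the CreER panel are replicate numbers. LSK Mx1Cre knockouts lie between 7497 and 7959 CPM, above all 4 of their controls, while CreER groups overlap.

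Averaged over both Cre lines, 13 of the 43 genes rose in LSK knockouts and none fell, where 13.5% of all genes tested rose and 14.3% fell. The fitted change was positive for 42 of the 43 genes, and its median was 0.25 on the log2 scale, beside 0.01 for all genes. At an unadjusted p under 0.05 there were 23. Those that rose came from 6 of the 8 role groups, and none was a cytokinesis or chromosome structure gene. This number changed when single libraries were left out. It was 6 without CreER control 1 and 7 without CreER control 2, and 6, 8 and 7 without Mx1Cre control 2, 3 or 4. It was 31 without CreER knockout 1, 4 without CreER knockout 2, 5 without CreER knockout 4 and 8 without Mx1Cre knockout 1, 3 or 4. Without CreER knockouts 2 and 3 together, 6 genes rose (Ccna2, Cks1b, Bub1, Nuf2, Cdca8 and Tacc3) and the median was 0.19. In that fit 9.93% of all genes rose and 11.9% fell.

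With Mx1Cre alone 15 genes rose and none fell, where 15.2% of all genes rose and 15.9% fell. The median change was 0.34, and Mki67, the gene of the proliferation antigen Ki-67, was the only one with a negative fitted change (-0.23, adjusted p = 0.45). In 31 of the 43 genes all 4 knockouts lay above all 4 controls, which held for 15.4% of all genes. In no member did all 4 knockouts lie below. Same-numbered knockout and control libraries of this group deviated together, and unlike numbers of the same sex did so too. With the replicate number as a block 27 genes rose, among them all 15. When the Mx1Cre libraries were fitted alone, 31 rose. The shares of all genes given above are from the main fit, and those of these refits are not given here.

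With CreER alone no member rose or fell by edgeR's test, where 1.57% of all genes rose and 1.59% fell. One gene, Bub1, had an unadjusted p under 0.05, and neither DESeq2 nor limma-voom called any. The fitted change was positive for 36 of the 43 genes, with a median of 0.16, and of 0.06 without knockouts 2 and 3. Without CreER knockout 1, the library lowest for 37 of the 43 genes, Bub1 alone rose (0.39, adjusted p = 0.0335). In no member did all 4 CreER knockouts lie above or below all 4 controls, where 4.13% and 4.99% of all genes did so.

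The difference between the Cre lines in the knockout effect did not pass the test for any of the 43 genes, where 0.688% of all genes were higher and 3.68% lower. Its median was 0.21, larger in Mx1Cre, and 0.29 with a count of 0 without CreER knockouts 2 and 3. There were 6 genes at an unadjusted p under 0.05. Birc5, which encodes survivin of the chromosomal passenger complex, came nearest with a difference of 0.62 (edgeR adjusted p = 0.0946), and DESeq2 called it (adjusted p = 0.0441). The count was 1 without CreER control 1. Without Mx1Cre knockout 2 it was 4, and Ccnb2, Cks1b, Birc5 and Tacc3 passed.

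**Figure D2:**
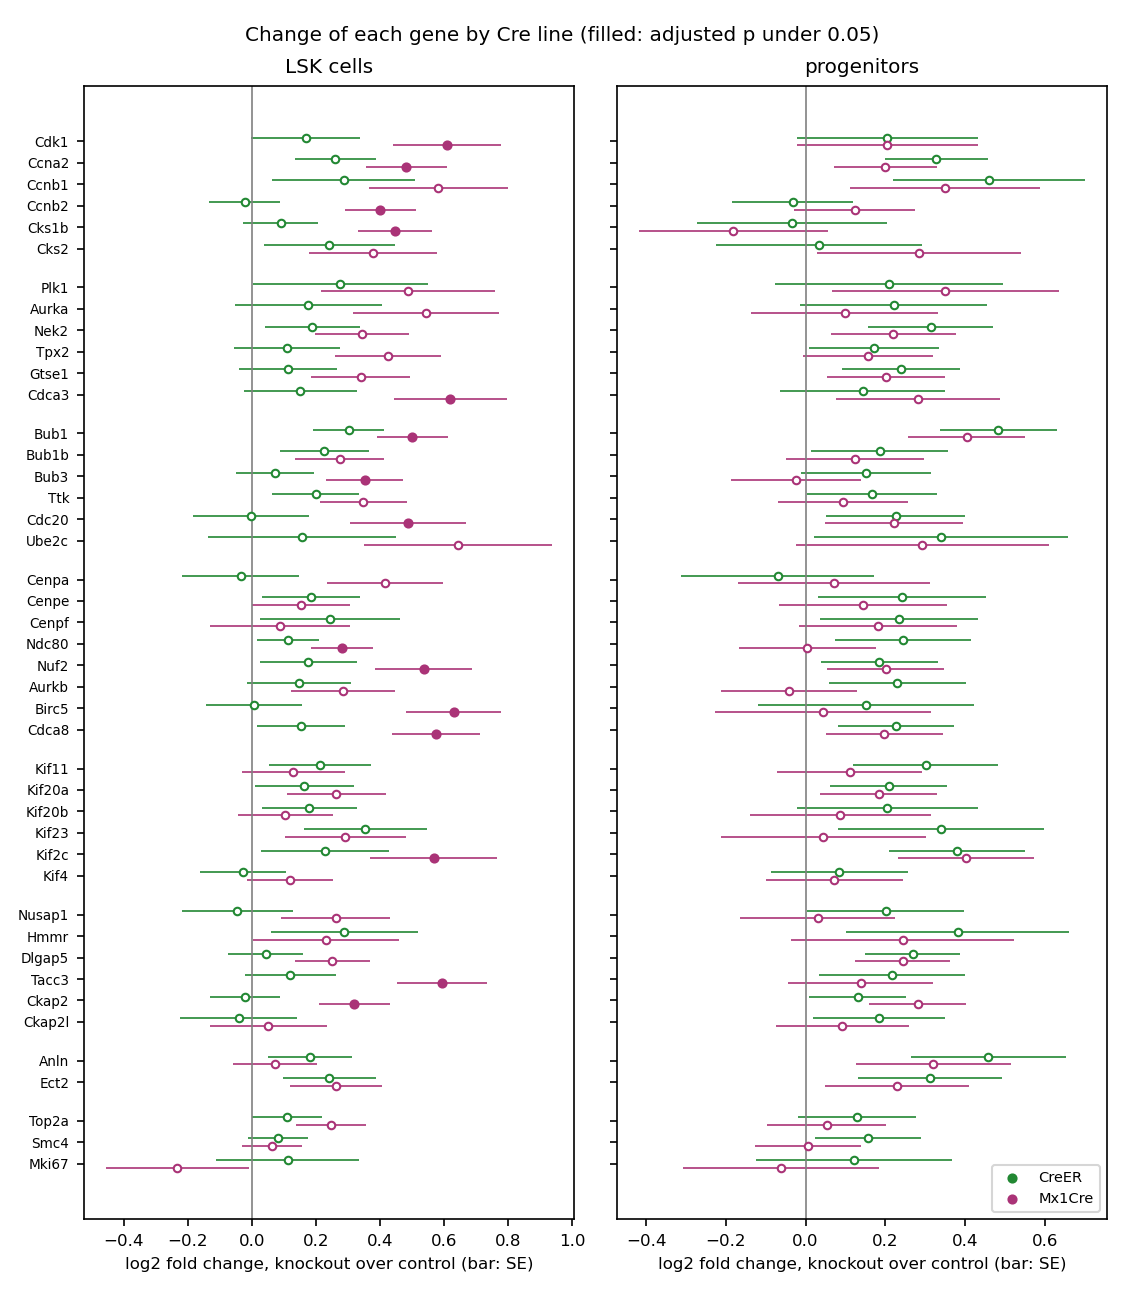
Log2 fold change of each of the 43 genes, knockout over control (x axis), in LSK cells and in progenitors, with genes on the y axis and 1 colour per Cre line. Bars are standard errors from the edgeR fit and filled points passed an adjusted p of 0.05. Filled points are the 15 LSK Mx1Cre changes, and no gene passed in a single Cre line in progenitors.

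Among the cyclins, Cdk1 and the Cks subunits, 4 of 6 genes rose on average over both lines and 4 of 6 in Mx1Cre. Cdk1, the kinase that starts mitosis, stood at 166, 150, 158 and 152 CPM in the LSK Mx1Cre controls and at 244, 204, 259 and 255 CPM in the knockouts. Every knockout exceeded every control, and knockout 2 was the lowest of the 4. Its change was 0.61 ± 0.17 (SE) in Mx1Cre, with an adjusted p of 0.012. In CreER it ran from 102 to 188 CPM in controls and from 127 to 214 CPM in knockouts (0.17 ± 0.17, adjusted p = 0.663).

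Ccna2, which encodes the cyclin of S phase and early mitosis, was at 264, 240, 255 and 227 CPM in Mx1Cre controls and at 377, 347, 331 and 333 CPM in knockouts. The groups were well apart, and the gene rose by 0.48 ± 0.13 on the log2 scale (adjusted p = 0.00827). In CreER the 4 controls were at 206, 245, 221 and 267 CPM and the knockouts at 218, 367, 245 and 289 CPM. These overlapped, although knockout 2 was above all controls, and the change was 0.26 ± 0.13 (adjusted p = 0.289). Averaged over both lines it was 0.37 (adjusted p = 0.00499).

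Ccnb1 and Ccnb2 encode the B-type cyclins. Ccnb1 was at 56.1, 51.7, 60.5 and 48.4 CPM in Mx1Cre controls and at 84, 76.6, 77.7 and 88.1 CPM in knockouts. All knockouts were above all controls, yet the adjusted p was 0.0501 in Mx1Cre (0.58 ± 0.22) and 0.0452 for both lines together (0.43 ± 0.16). In CreER its lowest library was control 1, at 20.5 CPM, and its highest knockout 2, at 55.5 CPM. Ccnb2 was at 130, 123, 113 and 108 CPM in Mx1Cre controls and at 166, 136, 161 and 167 CPM in knockouts, and rose by 0.40 ± 0.11 (adjusted p = 0.0117). In CreER its means were 117 ± 14.5 and 114 ± 16.2 CPM, and the change was -0.02 ± 0.11.

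Cks1b and Cks2 encode small subunits that bind Cdk1 to its substrates. Cks1b was at 125, 112, 126 and 119 CPM in Mx1Cre controls and at 172, 138, 173 and 178 CPM in knockouts. Knockout 2 stood well under the other three knockouts but above every control. The gene rose by 0.45 ± 0.12 in Mx1Cre (adjusted p = 0.00796) and had a change of 0.09 ± 0.12 in CreER. Cks2 had a change of 0.38 ± 0.20 in Mx1Cre and did not pass (adjusted p = 0.154).

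Of the 6 kinases of mitotic entry and their partners, only Cdca3, which encodes a protein that helps to remove the Cdk1 inhibitor Wee1, rose, by 0.39 ± 0.12 over both lines (adjusted p = 0.0281) and 0.62 ± 0.18 in Mx1Cre. Plk1, Aurka, Nek2, Tpx2 and Gtse1 had Mx1Cre changes of 0.34 to 0.54 with adjusted p from 0.0593 to 0.178. Tpx2, the spindle protein that activates Aurora A, was at 178, 163, 169 and 160 CPM in Mx1Cre controls and at 238, 236, 221 and 211 CPM in knockouts. Its groups did not overlap, but with a standard error of 0.17 its change of 0.42 missed the threshold (adjusted p = 0.0593).

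In the spindle checkpoint and anaphase-promoting complex group, 2 of 6 genes rose over both lines (Bub1 and Ttk) and 3 of 6 in Mx1Cre (Bub1, Bub3 and Cdc20). Bub1, a checkpoint kinase at the kinetochore, had the lowest adjusted p of the 43 genes over both lines. It was at 98.7, 94.6, 98.9 and 84.2 CPM in Mx1Cre controls and at 143, 139, 125 and 129 CPM in knockouts. In CreER the controls were at 77.3, 89.4, 88.8 and 103 CPM and the knockouts at 88.1, 125, 104 and 123 CPM. All 4 Mx1Cre knockouts and 3 of the 4 CreER knockouts exceeded every control of their line. The change was 0.50 ± 0.11 in Mx1Cre (adjusted p = 0.00287), 0.30 ± 0.11 in CreER (adjusted p = 0.152) and 0.40 ± 0.08 over both (adjusted p = 0.00111).

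Bub3, the partner that brings Bub1 and BubR1 to kinetochores, was at 179, 164, 169 and 164 CPM in Mx1Cre controls and at 232, 187, 216 and 234 CPM in knockouts. Its groups were apart, and it rose by 0.35 ± 0.12 in Mx1Cre (adjusted p = 0.0347). Bub1b, which encodes BubR1, was at 183, 179, 185 and 165 CPM in Mx1Cre controls and at 221, 238, 209 and 199 CPM in knockouts. Although these groups did not overlap either, its change of 0.28 ± 0.14 did not pass (adjusted p = 0.137). Cdc20, the activator of the anaphase-promoting complex, rose by 0.49 ± 0.18 in Mx1Cre (adjusted p = 0.0488). Ube2c, the ubiquitin-conjugating enzyme of that complex, had the largest Mx1Cre change of the 43 genes, 0.64, but with a standard error of 0.29 it did not pass (adjusted p = 0.101).

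Centromere, kinetochore and passenger complex genes gave 4 of 8 that rose in both tests, Ndc80, Nuf2, Birc5 and Cdca8. Ndc80 and Nuf2 encode arms of the complex that holds microtubules at the kinetochore, and rose in Mx1Cre by 0.28 ± 0.10 and 0.54 ± 0.15 (adjusted p = 0.0336 and 0.0131). Birc5 and Cdca8 encode survivin and borealin, partners of Aurora B. Cdca8 was at 142, 122, 138 and 129 CPM in Mx1Cre controls and at 206, 183, 209 and 198 CPM in knockouts, a rise of 0.58 ± 0.14 (adjusted p = 0.00471) with the groups far apart. Birc5 rose by 0.63 ± 0.15 in Mx1Cre (adjusted p = 0.00444), and its change in CreER was 0.01 ± 0.15. Aurkb itself did not pass (0.28 ± 0.16, adjusted p = 0.189). Cenpa, Cenpe and Cenpf, a centromeric histone, a kinesin and a large kinetochore protein, did not pass either, with changes of 0.42, 0.15 and 0.09.

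Only 1 of the 6 mitotic kinesins rose, Kif2c, which depolymerizes microtubules at centromeres, by 0.57 ± 0.20 in Mx1Cre (adjusted p = 0.0373). Kif11, the motor that pushes spindle poles apart, was at 267, 259, 264 and 230 CPM in Mx1Cre controls and at 277, 308, 272 and 266 CPM in knockouts. Knockout 4 lay below control 1, and the change was 0.13 ± 0.16 (adjusted p = 0.563). Kif23, a motor of the central spindle, was at 124, 131, 118 and 121 CPM in Mx1Cre controls and at 134, 181, 149 and 145 CPM in knockouts. Its knockouts were all above its controls, knockout 2 most, with a change of 0.29 ± 0.19 (adjusted p = 0.253). Kif20a, Kif20b and Kif4 had changes of 0.26, 0.10 and 0.12.

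Among spindle microtubule proteins, Tacc3, which crosslinks microtubules of the kinetochore fibre, rose over both lines and in Mx1Cre, and Ckap2 rose in Mx1Cre (0.32 ± 0.11, adjusted p = 0.0347). Tacc3 was at 154, 136, 149 and 131 CPM in Mx1Cre controls and at 235, 179, 236 and 219 CPM in knockouts. Knockout 2 was again the lowest of the 4 knockouts and still above the controls. The rise was 0.59 ± 0.14 (adjusted p = 0.00444). Nusap1, a protein that bundles spindle microtubules, was at 125, 120, 125 and 115 CPM in Mx1Cre controls and at 140, 148, 137 and 158 CPM in knockouts. Its groups did not overlap, and the change of 0.26 ± 0.17 did not pass (adjusted p = 0.256). Hmmr, Dlgap5 and Ckap2l had Mx1Cre changes of 0.23, 0.25 and 0.05.

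Neither cytokinesis gene and none of the 3 chromosome structure genes passed. Anln, a scaffold of the contractile ring, was at 104, 99.9, 95.1 and 88.3 CPM in Mx1Cre controls and at 109, 114, 92.4 and 94.6 CPM in knockouts. These groups overlapped, with a change of 0.07 ± 0.13, and Ect2, which activates RhoA for the ring, had a change of 0.26 ± 0.14. Top2a, the topoisomerase that disentangles sister chromatids, was at 785, 765, 789 and 755 CPM in Mx1Cre controls and at 923, 969, 966 and 843 CPM in knockouts. All knockouts were higher, but the change of 0.25 ± 0.11 did not pass (adjusted p = 0.0913). Mki67 was at 711, 757, 771 and 719 CPM in Mx1Cre controls and at 598, 856, 560 and 524 CPM in knockouts. Knockout 2 was above all controls and the other three knockouts were below all of them. Smc4, a condensin subunit, had a change of 0.06 ± 0.09.

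Gene length moved with these results. Exon lengths of the 43 genes ran from 694 bp (Cks2) to 11130 bp (Cenpf), with a median of 2960 bp, beside 2619 bp for the genes tested in LSK cells. In LSK Mx1Cre, 13 of the 22 genes of up to the median length rose, and 2 of the 21 longer ones. All genes within the members' length range moved likewise, since 21.0% of the shorter and 8.06% of the longer rose. The median change was 0.48 in the shorter members and 0.25 in the longer, beside 0.09 and -0.13 for all genes of those lengths. Both groups of members thus had higher medians than genes of similar length. With the length trend of each library removed, 17 members rose in LSK Mx1Cre and 16 over both lines, but not all were the same genes. In Mx1Cre, Ccnb2, Bub3, Cdc20 and Ndc80 no longer passed (0.27, 0.28, 0.38 and 0.23, adjusted p from 0.0538 to 0.105). Nek2, Tpx2, Ttk, Cenpe, Dlgap5 and Top2a passed instead. Over both lines Cks1b no longer passed (0.14, adjusted p = 0.08), and Nek2, Bub1b, Ect2 and Top2a did.

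The trend with length differed between the 4 LSK Mx1Cre knockouts. Over all genes tested, the log2 ratio of a library to the mean of the LSK controls had a slope on log2 exon length of -0.13, -0.17 and -0.19 in knockouts 1, 3 and 4 and of -0.02 in knockout 2. In knockout 2, all 43 genes were above the mean of the 4 Mx1Cre controls, with medians of 0.38 in both the shorter and the longer members. In knockouts 1, 3 and 4 there were 41, 38 and 39 genes above it, and all 22 shorter genes were. Their medians were 0.53, 0.52 and 0.55 in the shorter and 0.26, 0.10 and 0.16 in the longer genes.

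**Figure D3:**
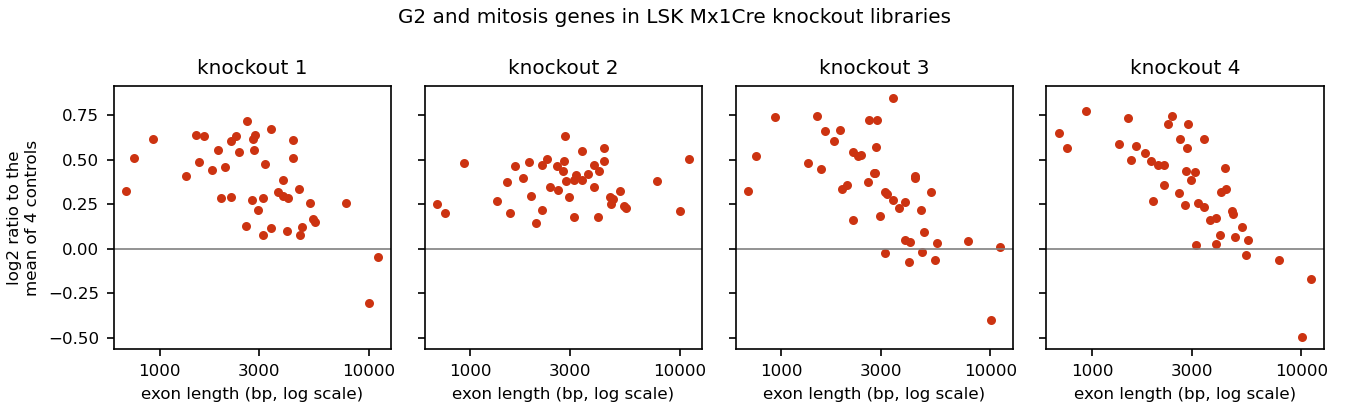
Log2 ratio of each of the 43 genes to the mean of the 4 controls (y axis) against exon length (bp, log scale) in LSK Mx1Cre knockouts 1 to 4, 1 panel per library. In knockout 2 all 43 points lie above 0 at every length, and in knockouts 1, 3 and 4 the longer genes lie nearer to 0.

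The CreER mice differed from each other in all these genes together. CreER control 1 was the lowest of the 4 controls for 35 of the 43 genes in LSK cells and for 39 in progenitors, and control 4 the highest for 38 and 40. CreER knockout 1 was the lowest knockout for 37 genes in LSK cells and for 42 in progenitors. The same mice were thus low or high in both populations. Mice 2 and 3 of the CreER knockouts were the exception. Knockout 2 had an LSK to progenitor ratio of the summed level of 1.21, with 40 genes higher in LSK cells, and knockout 3 a ratio of 0.748, with 1 gene higher. The ratio lay between 0.892 and 1.11 in the other 14 mice. With the LSK libraries of mice 2 and 3 exchanged, the ratios were 0.965 and 0.939, and these are the 2 libraries whose sex-linked genes go against their labels.

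In progenitors 1 of the 43 genes rose in knockouts averaged over both lines and none fell, where 2.28% of all genes rose and 5.51% fell, so the count was at the background. The fitted change was positive for 42 of the 43 genes, with a median of 0.19 beside -0.01 for all genes. At an unadjusted p under 0.05 there were 9. The gene that rose was Bub1 (0.44 ± 0.10, adjusted p = 0.0134). It was at 66.2, 90.8, 84 and 101 CPM in CreER controls and at 97.8, 109, 149 and 126 CPM in CreER knockouts. In Mx1Cre it was at 100, 92.6, 104 and 87.7 CPM in controls and at 134, 145, 111 and 125 CPM in knockouts. All Mx1Cre knockouts and 3 of 4 CreER knockouts were above every control of their line. The count was 3 without CreER control 4, 3 without Mx1Cre control 1 and 6 without CreER knockout 1.

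Within a Cre line no member passed in progenitors by edgeR, with 5 at an unadjusted p under 0.05 in CreER and 3 in Mx1Cre, and none by DESeq2 or limma-voom. Of all genes, 0.0365% rose and 0.131% fell in CreER, and 1.59% rose and 4.49% fell in Mx1Cre. The median change was 0.21 in CreER and 0.16 in Mx1Cre. In Mx1Cre the summed level was 6538, 6595, 6712 and 6287 CPM in controls and 7356, 7500, 6891 and 6845 CPM in knockouts, which did not overlap. For 5 genes (Ccnb1, Plk1, Bub1, Kif2c and Dlgap5) all Mx1Cre knockouts were above all controls, beside 3.64% of all genes. None did so in CreER, beside 4.77%. No member had all knockouts below all controls in either line, which held for 4.81% of all genes in CreER and 5.66% in Mx1Cre. The difference between the lines in the knockout effect passed for no member, and none had an unadjusted p under 0.05, where 0.0657% of all genes were higher and 0.234% lower. Without Mx1Cre control 1 the Mx1Cre median was 0.22 and Nek2, a centrosome kinase, rose (0.43, adjusted p = 0.037).

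Further members in progenitors did not pass the test. Ccna2 was at 198, 250, 234 and 278 CPM in CreER controls and at 245, 298, 340 and 330 CPM in knockouts. In Mx1Cre it was at 348, 278, 263 and 294 CPM in controls and at 348, 358, 317 and 353 CPM in knockouts. Control 1 of Mx1Cre was as high as the knockouts, and the change over both lines was 0.26 ± 0.09 (adjusted p = 0.0983). Anln was at 72.3, 84.2, 72.9 and 99.7 CPM in CreER controls and at 79.2, 107, 156 and 114 CPM in knockouts. Of the 4 knockouts 3 exceeded every control, with a change of 0.39 ± 0.14 over both lines (adjusted p = 0.105). Kif2c had a change of 0.39 ± 0.12 and an adjusted p of 0.0599.

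Progenitor Mx1Cre control 1 stood apart among its group. The slope of its log2 ratio to the progenitor controls on log2 exon length was -0.36, and 0.04, 0.02 and -0.05 in the other three controls. Its shorter members had a median of 0.28 above the control mean and its longer ones of -0.29. Cks1b was at 303 CPM there and at 126, 142 and 151 CPM in the other controls, while Anln was at 72.3 CPM beside 114, 112 and 86.5 CPM. Knockout 4 of the same line had a slope of -0.29.

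The knockout effect in LSK cells minus that in progenitors passed for none of the 43 genes by edgeR, and none had an unadjusted p under 0.05, where 1.10% of all genes were higher and 1.42% lower. Its median was 0.06, and -0.02 with a count of 0 without LSK CreER knockouts 2 and 3. With the mouse as a block the count was also 0. The rises called in LSK cells and not in progenitors are therefore not shown to differ between the populations.

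Control mice of the 2 Cre lines were also compared, since both were labelled Hbo1fl/+ and differed in Cre transgene and inducing agent. In LSK cells 2 members were higher in Mx1Cre than in CreER controls, Ccnb1 (0.68 ± 0.22, adjusted p = 0.0369) and Kif23 (0.60 ± 0.19, adjusted p = 0.0325). Gtse1, which encodes a G2 regulator of p53 and of microtubules, was lower (-0.52 ± 0.16, adjusted p = 0.0217). Of all genes, 11.7% were higher and 10% lower, shares above those of the members. The fitted difference was nevertheless positive for 40 of the 43 genes, with a median of 0.22 beside 0.0003 for all genes. Of the members, 7 had an unadjusted p under 0.05. Neither Ccnb1 nor Kif23 overlapped between the lines, with Ccnb1 at 20.5 to 47.5 CPM in CreER controls and 48.4 to 60.5 in Mx1Cre, and Kif23 at 54.6 to 114 and 118 to 131 CPM. The count of higher genes was 0 without any 1 of CreER controls 1 to 3 or Mx1Cre controls 1 to 3, 4 without CreER control 4 and 1 without Mx1Cre control 4. That of lower genes was 0 without CreER control 2 or 4 or Mx1Cre control 2 or 3.

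In progenitors 6 members were higher in Mx1Cre than in CreER controls, Ccnb1 (0.80), Cks1b (0.86), Bub3 (0.50), Aurkb (0.64), Kif23 (0.94) and Nusap1 (0.77), with adjusted p from 0.01 to 0.0354. Gtse1 was lower (-0.84 ± 0.15, adjusted p = 0.000972). Of all genes 14.3% were higher and 10.9% lower, so the count of higher members was near the background. The fitted difference was positive for 37 of the 43 genes, with a median of 0.30 beside 0.02 for all genes. Of the members, 20 had an unadjusted p under 0.05. Nusap1 was at 50, 67.5, 47.2 and 90.6 CPM in CreER controls and at 114, 107, 116 and 96.3 CPM in Mx1Cre controls, with no overlap. Kif23 was at 32.9, 54.9, 54.9 and 73.1 CPM and at 68.4, 115, 119 and 112 CPM, and Mx1Cre control 1 fell within the CreER range. The count of higher members was 2 without CreER control 1 and 12 without CreER control 4.

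Few of these genes differed between LSK cells and progenitors of control mice. Averaged over both lines 2 members were higher in LSK cells, Kif23 (0.45, adjusted p = 0.0419) and Nusap1 (0.38, adjusted p = 0.031), and none lower, where 17.4% of all genes were higher and 17.3% lower. The median difference was -0.01, with 21 genes positive and 22 negative. With the mouse as a block, which pairs the 2 libraries of a mouse, 4 were higher (Kif23, Nusap1, Cenpf and Kif11) and 2 lower (Cdca3 and Cenpa). The unblocked count was 0 without LSK CreER control 4 or without progenitor CreER control 1 or 3. It was 1 without LSK CreER control 2, any LSK Mx1Cre control, progenitor CreER control 2 or progenitor Mx1Cre control 1 or 4.

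Within CreER controls Nusap1 was higher in LSK cells (0.59 ± 0.20, adjusted p = 0.0331), where 10.6% of all genes were higher and 7.28% lower. With the mouse as a block Kif23 and Nusap1 were higher and Gtse1 and Mki67 lower. Nusap1 was at 80.9, 96.9, 87.8 and 119 CPM in LSK libraries and at 50, 67.5, 47.2 and 90.6 CPM in progenitor libraries of the same mice. In each of the 4 mice the LSK library was higher. The unblocked count was 2 without LSK CreER control 1 or progenitor CreER control 4, and 0 without LSK control 2 or 4 or progenitor control 1, 2 or 3.

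Within Mx1Cre controls Cks1b was lower in LSK cells (-0.57 ± 0.19, adjusted p = 0.0268), where 12.8% of all genes were higher and 15.4% lower. With the mouse as a block Cks1b and Cdca3 were lower and Cenpf was higher. Cks1b was at 125, 112, 126 and 119 CPM in LSK libraries and at 303, 126, 142 and 151 CPM in progenitors, so that the difference was largest in mouse 1. The unblocked count was 0 without LSK control 2 or 4 or progenitor control 1, and 2 without progenitor control 2, 3 or 4.

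**Figure D4:**
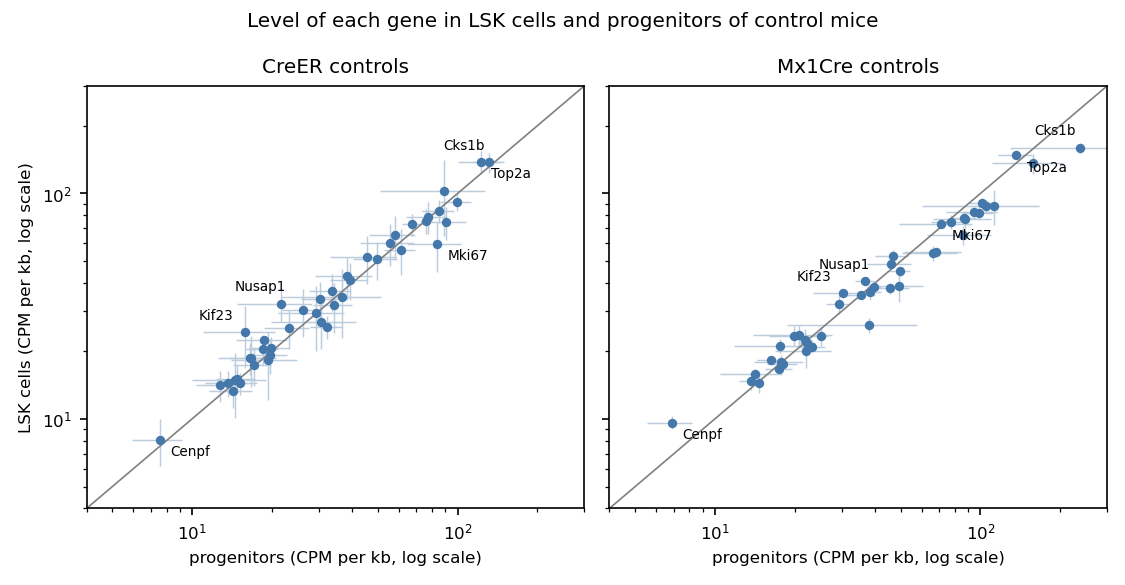
Level of each of the 43 genes in control mice, progenitors (x axis) against LSK cells (y axis), both as mean CPM per kb of exon on log scales, for CreER and Mx1Cre controls. The grey line marks equal levels. Most points lie close to it, with Nusap1 and Kif23 above it in CreER controls and Cks1b below it in Mx1Cre controls.

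Levels per length, averaged over the 16 control libraries, ran from 167 CPM per kb for Cks1b to 8.03 CPM per kb for Cenpf. Top2a (136) and Ube2c (122) followed Cks1b, and Smc4, Cenpa and Ccna2 came next with 95.8, 91.5 and 90.5 CPM per kb. Cdk1 had rank 15 of the 43 with 55.2 CPM per kb. The longest genes, Cenpf and Mki67, were at opposite parts of the order, with Mki67 at rank 10 and 72.0 CPM per kb.

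Further genes of the cell cycle were read from lists. Of 46 other G2 and M phase genes, 10 rose in LSK knockouts over both lines and none fell, with a median of 0.16 and 4 negative changes, where 13.5% of all genes rose and 14.3% fell. In Mx1Cre 9 rose (median 0.23), where 15.2% of all genes rose, and in CreER none passed (median 0.08, 12 negative). Without CreER knockouts 2 and 3, 5 rose over both lines, among them Ska1, Depdc1b and Plk4, where 9.93% of all genes rose. With all libraries, Ska1 rose by 0.45 ± 0.10 and Depdc1b by 0.47 ± 0.11 over both lines, a kinetochore protein and a mitotic regulator. Ska1 had means of 23.9 and 24.9 CPM in CreER controls and knockouts, and of 25.1 and 45.0 CPM in Mx1Cre. Those of Depdc1b were 35.9 and 45.5 CPM in CreER and 39.3 and 60.1 CPM in Mx1Cre. Plk4, the kinase of centriole duplication, rose by 0.24 ± 0.06. Adjusted p of these genes ran from 0.00226 to 0.00537. In progenitors 2 rose, Depdc1b (0.43, adjusted p = 0.00453) and the mitotic phosphatase gene Cdc25b (0.44, adjusted p = 0.0494). Of all genes, 2.28% rose there.

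Of 32 S phase and origin licensing genes, 6 rose and 2 fell in LSK knockouts over both lines, with a median of 0.12, a share of rises near that of all genes. In Mx1Cre 10 rose and none fell (median 0.18), where 15.2% of all genes rose, and in CreER 1 rose (median 0.01). Without CreER knockouts 2 and 3, 6 rose and 1 fell over both lines, where 9.93% of all genes rose and 11.9% fell. Ccne1, the cyclin of the G1 to S transition, rose by 0.72 ± 0.08 (adjusted p = 7.17e-06), and Rrm2, a subunit of ribonucleotide reductase, by 0.39 ± 0.06 (adjusted p = 0.000311). In progenitors 2 fell, the helicase subunit gene Mcm6 (-0.25) and the licensing factor gene Cdt1 (-0.25), 5 had an unadjusted p under 0.05, and none rose by edgeR. Of all genes, 2.28% rose and 5.51% fell there. Among 14 tested of 16 G1 cyclins, CDKs and CDK inhibitors, 5 rose and 1 fell in LSK knockouts over both lines. These counts stood beside 13.5% and 14.3% of all genes. They were the same without CreER knockouts 2 and 3, beside 9.93% and 11.9%. In Mx1Cre 6 rose and 1 fell, beside 15.2% and 15.9% of all genes, and in CreER none passed. Over both lines Ccnd1 (0.66 ± 0.13) and Ccnd2 (0.39 ± 0.07), D-type cyclins, rose. Ccnd1 had means of 79.7 and 72.5 CPM in CreER controls and knockouts, and of 20.6 and 56.2 CPM in Mx1Cre. Those of Ccnd2 were 352 and 419 CPM in CreER and 180 and 262 CPM in Mx1Cre. Of the CDK inhibitor genes Cdkn1a rose by 0.49 ± 0.12 and Cdkn1b fell (-0.40 ± 0.08). Cdkn1c rose too (0.91 ± 0.26, adjusted p = 0.0156). In progenitors over both lines Cdkn1c rose (1.81 ± 0.44, adjusted p = 0.0163), and it was the only 1 of the 14 that passed there. Its level in progenitors was low, with means of 0.856 and 1.058 CPM in CreER controls and knockouts. In Mx1Cre they were 0.32 and 3.398 CPM. With CreER alone none of the 14 passed in progenitors.

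Of 16 transcriptional regulators of mitotic genes, 1 rose in LSK knockouts and none fell, where 13.5% of all genes rose and 14.3% fell. It was Lin54, the subunit of MuvB that binds the cell cycle homology element (0.22 ± 0.06, adjusted p = 0.0144). Without CreER knockouts 2 and 3 none passed. In Mx1Cre 1 rose and 1 fell, where 15.2% of all genes rose and 15.9% fell, and in CreER none passed. In progenitors none passed by edgeR, with 2 at an unadjusted p under 0.05. Of the 12 members that rose in LSK cells and had a promoter in the table, 7 held CCAAT and 7 held TTTGAA, beside 22 and 20 of the 25 others. Of 10 p53 target genes, 2 rose (Bax and Sesn2) and 1 fell (Zmat3) in LSK knockouts over both lines. Of all genes the same 13.5% rose and 14.3% fell. In Mx1Cre 2 rose and 3 fell, beside the same 15.2% and 15.9% of all genes, and in CreER none passed. Without CreER knockouts 2 and 3, Bax rose and Zmat3 fell over both lines, where 9.93% of all genes rose and 11.9% fell. None passed in progenitors, where none had an unadjusted p under 0.05.

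Markers of cell types moved with genotype in the same libraries. Over both lines 13.5% of all genes rose and 14.3% fell in LSK cells, the background for each list here. Of 10 LSK and stem cell markers 6 fell there and none rose. Their summed level was 1284 to 1569 CPM in Mx1Cre controls and 931 to 1281 CPM in knockouts, and 1537 to 1786 and 1185 to 1861 CPM in CreER. Erythroid markers fell in 5 of 8, from 126 to 574 CPM in Mx1Cre controls to 41.4 to 70.4 CPM in knockouts, and megakaryocyte markers in 4 of 6. Mast cell and basophil markers fell in 4 of 6. Granulocyte and monocyte progenitor markers rose in 3 of 6 and neutrophil markers in 4 of 7. The former had a summed level of 16734 to 20978 CPM in Mx1Cre controls and 19347 to 26623 CPM in knockouts. In Mx1Cre alone 1 of these 6 and 0 of the 7 rose, where 15.2% of all genes rose. Without CreER knockouts 2 and 3 it was 1 and 1, beside 14.2%. Elane, of the former list, had means of 2445 and 1805 CPM in Mx1Cre controls and knockouts. Of the 6 fitted changes in Mx1Cre, 5 were positive. Without CreER knockouts 2 and 3, counts over both lines changed for 3 of the lists named here. These were granulocyte and monocyte progenitor markers (1 of 6 rose), mast cell and basophil markers (3 of 6 fell) and stem cell markers (6 fell and 1 rose). In that fit 9.93% of all genes rose and 11.9% fell. No marker of these lists was at 0 in all 4 libraries of an LSK group. In CreER the erythroid markers were at 310 to 531 CPM in controls and 347 to 510 CPM in knockouts, and the granulocyte and monocyte progenitor markers at 4858 to 10819 and 6565 to 14866 CPM. The part of these lists in the rise of the G2 and mitosis genes was not tested.

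In progenitors the marker lists moved otherwise. Over both lines 2.28% of all genes rose and 5.51% fell there. Monocyte and macrophage markers fell in 5 of 7 over both lines, from 2617 to 3498 CPM in Mx1Cre controls to 1008 to 1638 CPM in knockouts. Granulocyte and monocyte progenitor markers fell in 1 of 6 and rose in none. Their summed level was 34721 to 38229 CPM in Mx1Cre controls and 24787 to 28732 CPM in knockouts. Between control groups the same list was at 4858 to 10819 CPM in LSK CreER and at 16734 to 20978 CPM in LSK Mx1Cre mice. The part of these lists in the values of the 43 genes was not tested.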

How the data were processed

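Per the labels' protocols, libraries were made with a TruSeq kit from 50 ng of RNA and sequenced as paired-end 80 bp reads. The submitters' processing notes name featureCounts and mm10. Which aligner, annotation, strand setting and versions were used is not given in the sources used here. Per the file headers, the deposited tables hold raw counts for each gene and its exon length. Symbols came from RefSeq (GRCm38.p6) for 25275 of 27179 genes; the others held 3.92% of the counts.

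Counts were analysed in R 4.3.3 with edgeR 4.0.16 (TMM, filterByExpr with at least 10 counts in enough libraries, quasi-likelihood test, Benjamini-Hochberg over all genes, threshold 0.05). The 16 libraries of a population shared a fit, and all 32 did for comparisons across populations, with groups as the only coefficients. SE came from the F statistic. In all, 14 comparisons were made. CPM per kb divides CPM by exon length. The script was tested on simulated counts. Without molecular identifiers, reads are not independent molecules, and depth sets counting error only. Paralogs, overlapping genes and antisense partners may share counts.

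The 43 genes and all lists were chosen with earlier results of these data known. Any of the 43 may be named. Values by library are given for the 8 called in most comparisons (ties, which include the last 3, by higher mean CPM) and, among the rest, for the 1 with the highest mean CPM of each role group, and lists by up to 4 genes of lowest adjusted p. Mki67, second in its group, was added after its values were seen. Markers of 11 cell types were read.

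In LSK Mx1Cre, same-numbered knockout and control libraries deviated together from their group means over all genes. With r of 0.194, 0.258, 0.209 and 0.147, the number was used as a block. The labels do not pair these mice. Libraries 1 and 2 were female and 3 and 4 male in both groups. Unlike numbers of the same sex gave r from 0.071 to 0.193, and those of unlike sex from -0.214 to -0.109. Shared number and sex were not told apart. The libraries of a mouse pair by label.

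Alternatives were DESeq2 1.42.0 and its size factors, limma-voom (limma 3.58.1), other filters, sex as a covariate, a fold of 1.2, length trends removed (loess, span 0.5), blocks, smaller fits and libraries left out.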

Additional observations from a re-analysis of the deposited data

Results flagged for a closer look

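Among 144 groups of 4 libraries, the 8 groups of 18 measures (the 17 genes given by library and the sum), 6 held a library far from the other three by Dixon's criterion at 95%, on the gap over the range. Chance flags about 1 in 20 groups. Of the 6, 3 were in progenitor Mx1Cre control 1, where Cks1b was highest at 303 CPM (others 126, 142 and 151), Bub1b lowest at 122 CPM (others 184, 186 and 186) and Kif23 lowest at 68.4 CPM (others 112, 115 and 119). Cks1b was lowest in LSK Mx1Cre knockout 2, at 138 CPM (others 172, 173 and 178). Ccnb1 was lowest in progenitor Mx1Cre knockout 3, at 66.1 CPM (others 77.5, 78.5 and 78.6). Mki67 was lowest in LSK CreER knockout 1, at 326 CPM (others 739, 749 and 770).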

How the results depend on the processing

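No called value changed sign under any alternative, and named genes kept their call in 736 of 951 refits and lost it in 215. The gene counts below are members called, and the cause of each shift was not tested unless fewer libraries were used. Apart from LSK knockouts without CreER knockouts 2 and 3, shares of all genes called in these refits are not given. In LSK knockouts over both lines, 13 genes rose in the report; 0 did so against a fold of 1.2, 6 without CreER knockouts 2 and 3, 24 with the replicate block and 30 with that block and the length trend removed. Leaving out 1 library gave 4 to 31. In LSK Mx1Cre, 15 became 4 against a fold of 1.2, 27 with the replicate block, 33 with block and length trend removed and 31 when these groups were fitted alone, and 10 to 15 without 1 library. In LSK CreER, 0 became 1 with block and length trend removed, and 0 to 1 without 1 library. The difference between lines in LSK cells gave 1 with DESeq2 and 0 to 4 without 1 library. LSK controls gave 0 higher and 0 lower against a fold of 1.2, 7 higher when fitted alone, and 0 to 4 higher and 0 to 1 lower without 1 library. Progenitor knockouts over both lines gave 4 with DESeq2, 2 with sex as a covariate, 0 against a fold of 1.2, 3 with the length trend removed, 2 with the replicate block and 1 to 6 without 1 library. Progenitor Mx1Cre gave 0 to 1, with a median of 0.13 to 0.22. Progenitor controls gave 10 with DESeq2, 10 with the replicate block and 2 to 12 without 1 library.

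LSK cells against progenitors in controls over both lines gave 1 higher without the filter, 0 higher against a fold of 1.2, 2 lower with the length trend removed, 4 higher and 2 lower with the mouse as replicate block, 3 lower with block and length trend removed, and 0 to 3 higher without 1 library. In CreER it gave 2 higher with DESeq2, 0 against a fold of 1.2, 2 higher and 2 lower with the mouse block, with and without the length trend, and 0 to 2 higher without 1 library. In Mx1Cre it gave 0 lower against a fold of 1.2, 1 higher and 2 lower with the mouse block, 3 lower with block and length trend removed, and 0 to 2 lower without 1 library. Same-numbered knockout and control libraries did not all deviate together in LSK CreER (r from -0.179 to 0.218), progenitor CreER (-0.036 to 0.332) or progenitor Mx1Cre (-0.31 to 0.474), so there the replicate block rests on a shared number only. With 4 mice per group, standard errors of the 43 genes ran from 0.07 to 0.45 (log2), which limits what could be called, and depth limits only counting error.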

Other observations

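A pair of lists that are not of G2 or mitosis differed between the Cre lines in control LSK cells by edgeR. Of 32 S phase and origin licensing genes, 21 were lower and none higher in Mx1Cre than in CreER controls, with a median of -0.29 (10% of all genes were lower). In progenitor controls 2 of the 32 were lower and 2 higher, with a median of -0.06 (10.9% and 14.3% of all genes). Of 10 p53 target genes, 7 were lower and none higher in LSK controls, with a median of -0.75. In progenitor controls 7 of the 10 were lower too, with a median of -1.30 (10.9% of all genes).

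S phase genes also differed between populations. In control mice over both lines, 19 of the 32 were lower in LSK cells than in progenitors and none higher. The median was -0.26 (17.3% of all genes were lower). By line, 24 were lower in Mx1Cre controls (median -0.40, 15.4% of all genes) and 6 in CreER controls (median -0.12, 7.28% of all genes). Of the 43 G2 and mitosis genes, 2 were higher and none lower over both lines.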
